A study of Mus musculus with 6 samples.

Results

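FOXC2 binding was examined at 10 genes of the TGF-beta and BMP pathways in mouse podocytes, the epithelial cells that wrap the capillaries of the kidney's filter. The genes were the ligands *Tgfb1*, *Tgfb2* and *Bmp7*, the receptors *Tgfbr1* and *Tgfbr2*, and the SMAD genes *Smad2*, *Smad3*, *Smad4*, *Smad6* and *Smad7*. They are 10 of 21911 protein-coding genes in GENCODE M21 on the GRCm38 build. Every FOXC2 peak with any part within 50 kb of the start of a gene's record was taken as a peak of that gene. This gave 84 peaks of 41075 in the control list and 89 of 40067 in the injury list, so 173 of 81142 in all. All 10 genes had at least 1 peak in each list.

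The mice of both groups carried the mTmG reporter and a Cre transgene driven by a podocyte promoter. Cre changes the reporter, so sorted cells are those that made Cre at some time. The 3 control samples came from mice given PBS on days 0 and 7. The 3 injury samples came from mice given adriamycin (ADR), an anthracycline that damages podocytes, at 18 mg/kg on the same days, and cells of both groups were taken on day 9. All mice were males of mixed background, and the groups were littermates. FOXC2 was precipitated with 1 antibody in all samples. The authors pooled the samples of each condition, so that 1 list of peaks stands for PBS and 1 for ADR. No value below has a replicate error, the conditions could not be tested against each other, and the read depth behind the lists is not in the files. Each peak carries a fold, which is the authors' enrichment over the control of its own list. Folds reached 80.6 among PBS peaks and 49.1 among ADR peaks, with medians of 6.53 and 7.42. The podocyte genes *Nphs1*, *Synpo*, *Podxl* and *Wt1* all had peaks within 50 kb in both lists, between 9 and 18 per list. Peaks do not measure expression.

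TGF-beta ligands bind a complex of type I and type II receptors, encoded by *Tgfbr1* and *Tgfbr2*, which phosphorylates SMAD2 and SMAD3. These join the common partner SMAD4, enter the nucleus and bind DNA at short CAGACA-type elements. BMP ligands such as BMP7 act through related receptors and other SMADs that also need SMAD4. SMAD6 and SMAD7 are inhibitory SMADs that are switched on by the pathways and damp them. In the glomerulus, TGF-beta signaling is known for its part in matrix deposition, scarring and podocyte loss, and BMP7 for its part in nephron formation and as a counterweight to TGF-beta.

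Where peaks of the lists shared at least 1 bp they were joined into 1 site, which gave 105 sites at the 10 genes. The 5 windows of sequence below show, on the plus strand of GRCm38, the 201 bases around the summit of sites that the results turn on. They are the strongest site of *Smad3*, of *Tgfb1* and of *Tgfb2*, and, among the sites with a fold of at least 20 in either list, those with the largest and the smallest ratio of ADR to PBS fold. Capitals mark matches, on either strand, to the motif strings that are spelled out with the motif results.
Smad3 start site (strongest site of all 10 genes), chr9:63758099-63758299: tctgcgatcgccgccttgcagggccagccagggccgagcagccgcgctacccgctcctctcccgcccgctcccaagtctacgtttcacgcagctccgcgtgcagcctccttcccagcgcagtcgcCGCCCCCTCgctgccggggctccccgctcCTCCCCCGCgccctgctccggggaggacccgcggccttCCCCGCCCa
Tgfb1 site 20.8 kb downstream of the start, chr7:25707731-25707931: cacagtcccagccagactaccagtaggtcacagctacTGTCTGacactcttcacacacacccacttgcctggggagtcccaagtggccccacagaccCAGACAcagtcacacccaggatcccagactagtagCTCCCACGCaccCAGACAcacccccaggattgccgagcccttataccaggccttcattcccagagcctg
Tgfb2 intron site 3.38 kb downstream of the start, chr1:186702507-186702707: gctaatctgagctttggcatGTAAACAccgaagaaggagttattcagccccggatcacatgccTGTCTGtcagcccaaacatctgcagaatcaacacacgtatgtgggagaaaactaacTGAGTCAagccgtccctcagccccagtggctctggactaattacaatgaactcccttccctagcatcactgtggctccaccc
Smad3 site 22.4 kb upstream of the start (higher in ADR), chr9:63780269-63780469: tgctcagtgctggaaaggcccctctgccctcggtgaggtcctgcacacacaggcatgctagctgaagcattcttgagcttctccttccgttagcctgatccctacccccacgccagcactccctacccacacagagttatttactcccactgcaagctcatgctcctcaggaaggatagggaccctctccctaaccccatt
Smad3 intron site 36.2 kb downstream of the start (lower in ADR), chr9:63721661-63721861: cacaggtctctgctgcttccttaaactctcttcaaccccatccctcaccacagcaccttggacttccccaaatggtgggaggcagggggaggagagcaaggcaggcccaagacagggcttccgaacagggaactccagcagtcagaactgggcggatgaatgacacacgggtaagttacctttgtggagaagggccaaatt

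After ADR, 5 of the 10 genes had more FOXC2 peaks than with PBS and the other 5 had fewer. Of 16857 coding genes with a peak within 50 kb in either list, 27.2% had more ADR peaks, 44.1% had fewer and 28.8% had the same number. These genes were not matched to the 10 by number of peaks. Their median was 7 in both lists together, against 14. *Bmp7* had 12 PBS and 17 ADR peaks, the largest difference of the 10 genes, and a difference of at least 5 was seen at 1.17% of coding genes with a peak. *Tgfb2* had 3 PBS and 5 ADR peaks, *Smad2* also 3 and 5, *Tgfbr1* 1 and 3, and *Tgfbr2* 2 and 3. In the other direction, *Tgfb1* had 11 and 9 peaks, *Smad3* 16 and 14, *Smad4* 3 and 2, *Smad6* 13 and 12, and *Smad7* 20 and 19. The *Smad7* site at 3.24 kb, called in both lists, held 2 PBS peaks and 1 ADR peak. At *Smad7*, 2 sites were called only in PBS and 2 only in ADR. The *Smad7* difference thus rests on how 1 site was divided into peaks. The mean difference, ADR minus PBS, was 0.5 peaks per gene against −0.418 over coding genes with a peak, and both medians were 0.

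**Figure D1:**
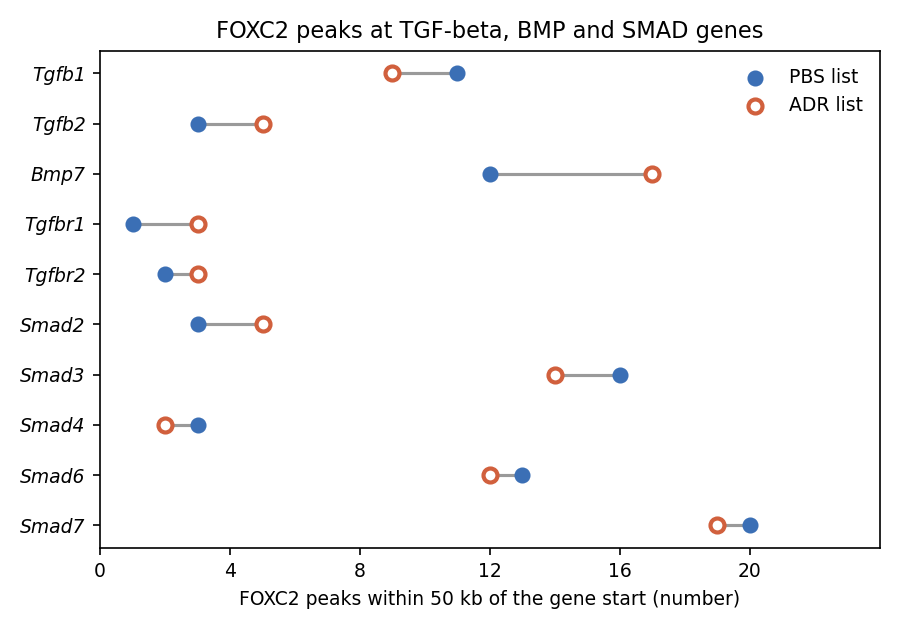
Count of FOXC2 peaks in the 50 kb window of each gene (x axis), with PBS filled and ADR open, from 1 pooled list per condition and with no error. *Smad7* has the most peaks, 20 and 19, and *Bmp7* the widest gap, 12 and 17.

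Peak numbers differed widely between the genes. With both lists together, 0.534% of coding genes with a peak had as many peaks as *Smad7* or more. The corresponding shares were 1.96% for *Smad3*, 2.33% for *Bmp7*, 4.41% for *Smad6* and 9.52% for *Tgfb1*. Both receptors, *Smad2*, *Smad4* and *Tgfb2* had between 1 and 5 peaks per list. Over the 10 genes the median was 14 peaks in both lists together, and over coding genes with a peak it was 7.

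Of the 105 sites, 67 were called in both lists (63.8%, 95% Wilson interval 54.3 to 72.4, counting error only), against 50.1% of all 53255 sites of the series. The intervals take sites as independent, although they lie in 10 windows and *Smad7* alone holds 17 of the 67. The sites of the series lie at any distance from a gene start. Another 16 were called only in PBS (15.2%, 9.60 to 23.3), against 25.5% of all sites. The remaining 22 were called only in ADR (21%, 14.3 to 29.7), against 24.3%. Sites of 1 list had lower folds than shared ones, here as in the series, where the medians were 4.98 for PBS-only and 5.96 for ADR-only sites. The 16 PBS-only sites had a median fold of 4.79, with a highest value of 10.9 at *Tgfb1*, and the 22 ADR-only sites had a median of 5.17, with a highest value of 11.9 at *Smad3*. Shared sites had median folds of 9.05 in PBS and 9.12 in ADR. A fold of 20 or more in either list was reached by 12 sites, all of them shared.

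Among the 67 shared sites the ADR fold was at least 1.5 times the PBS fold at 11 (16.4%, 9.42 to 27.1) and at most 1/1.5 of it at 17 (25.4%, 16.5 to 36.9). The background over all 26703 shared sites was 23.9% and 17.5%. The other 39 lay between these limits, and the median ratio was 1.02 against 1.03 over all shared sites. A shared site covered the start of 9 of the 10 genes, all but *Tgfb2*, against 46.6% of coding genes with a peak and 35.8% of all coding genes. At these 9 starts the ratio ran from 0.609 to 1.24, with 0 at or above 1.5 and 2 at or below 1/1.5, those of *Tgfbr1* and *Smad3*. At the 58 sites away from the starts it ran from 0.193 to 3.22, with 11 at or above 1.5 and 15 at or below 1/1.5. Over all coding starts, 11.4% of shared sites were at or above the limit and 15.6% at or below it, and away from starts the shares were 28.4% and 18.2%.

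**Figure D2:**
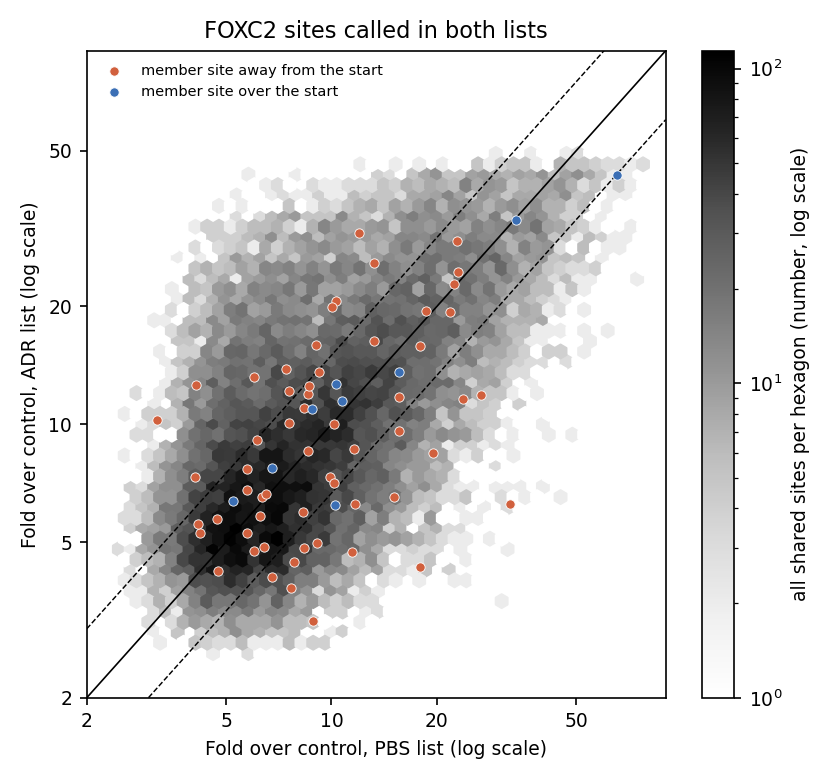
Fold over control with PBS (x axis, log scale) and with ADR (y axis, log scale) of sites called in both lists. Hexagons are all 26703 shared sites by number, points are the 67 shared sites of the 10 genes, the solid line is equality and the dashed lines are ratios of 1.5 either way. The 9 points over gene starts have ratios between 0.609 and 1.24, with 2 of them just below the lower dashed line, and the 58 points away from starts have ratios between 0.193 and 3.22.

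Among the ligands, *Tgfb1* (ENSMUSG00000002603.15, chr7:25687002-25705077, plus strand) had a shared site over its start, with a fold of 15.6 in PBS and 13.6 in ADR. A site in the gene 2.39 kb downstream had 15.6 and 9.61. The strongest site, 20.8 kb downstream of the start at chr7:25707504-25708320 and beyond the end of the gene, had 23.8 and 11.6. The site at 25.1 kb, at the end of *Ccdc97*, had 19.4 and 8.43. These last 3 had the lower fold in ADR by a ratio of 0.618, 0.486 and 0.434. The site 6.0 kb upstream, at the promoter of *B9d2*, went the other way, with 4.08 in PBS and 7.33 in ADR, a ratio of 1.80. The window of *Tgfb1* also holds the starts of 5 other coding genes, *B9d2*, *Bckdha*, *Ccdc97*, *Exosc5* and *Tmem91*. Only 3 of its PBS peaks and 3 of its ADR peaks were nearer to the *Tgfb1* start than to any other coding start, and the sites at 20.8 and 25.1 kb were nearest to that of *Ccdc97*.

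*Tgfb2* (ENSMUSG00000039239.14, chr1:186622792-186705989, minus strand) had 5 sites, 3 of them shared. Its promoter-proximal site, 0.674 kb inside the gene, had 6.01 in PBS and 4.73 in ADR. The intron site at chr1:186702431-186703037, whose window is printed above, had 4.11 and 12.6, a ratio of 3.06. This was the strongest *Tgfb2* site in ADR and the weakest in PBS. The 2 ADR-only sites, 35.0 kb upstream and 37.7 kb downstream, had folds of 4.32 and 5.36, and no *Tgfb2* site was called only in PBS. The site 43.5 kb upstream, at the promoter of the neighbor *Rrp15*, had 4.75 and 4.22.

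*Bmp7* (ENSMUSG00000008999.7, chr2:172868012-172940321, minus strand) had 18 sites, of which 11 were shared, 6 were called only in ADR and 1 only in PBS. The site over its start was strong and alike in both lists, with 33.6 in PBS and 33.2 in ADR. The next strongest, in the intron 8.68 kb downstream, had 22.8 and 29.4, and the site 19.2 kb upstream had 22.3 and 22.8. A total of 5 *Bmp7* sites were at or above a ratio of 1.5. The intron site at 5.15 kb (chr2:172934923-172935443) had 3.18 in PBS and 10.3 in ADR, a ratio of 3.22 and the largest at the 10 genes. The intron sites at 7.92 kb and 38.3 kb had 7.56 and 12.2, and 6.01 and 13.2. Upstream, the site at 14.1 kb had 7.40 and 13.9. The site at 43.4 kb, in an intron of the neighbor *Spo11*, had 10.3 and 20.6.

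The 2 *Bmp7* sites at or below 1/1.5 lay upstream of the start. The site at 25.2 kb had 11.4 in PBS and 4.71 in ADR, and the site at 14.7 kb had 7.82 and 4.46. Of the 6 ADR-only sites, 5 lay in introns of *Bmp7*, with folds between 4.60 and 8.33, and the other lay 34.2 kb upstream. The 5 shared sites in *Bmp7* introns all had the higher fold in ADR, with ratios from 1.29 to 3.22, so not all reached 1.5. Over all shared sites away from coding starts, 28.4% were at or above 1.5 and 18.2% at or below 1/1.5. No site inside *Bmp7* was called only in PBS. Counting only peaks nearer to the *Bmp7* start than to that of *Spo11* left 8 PBS and 13 ADR peaks.

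The receptor genes carried few peaks. *Tgfbr1* (ENSMUSG00000007613.15, chr4:47353222-47414931, plus strand), the type I receptor, had 1 shared site, over its start, with 10.2 in PBS and 6.23 in ADR. This ratio of 0.609 was the lowest at the 9 starts. Its other sites were called only in ADR, at 6.91 kb upstream with a fold of 4.87 and in the first part of the gene, at 0.517 kb, with 5.42. *Tgfbr2* (ENSMUSG00000032440.13, chr9:116084293-116175360, minus strand), the type II receptor, had 10.7 and 11.4 over its start and 4.72 and 5.74 at a site 43.5 kb upstream. An ADR-only intron site at 7.77 kb had 4.60. The receptor windows held no other coding start.

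**Figure D3:**
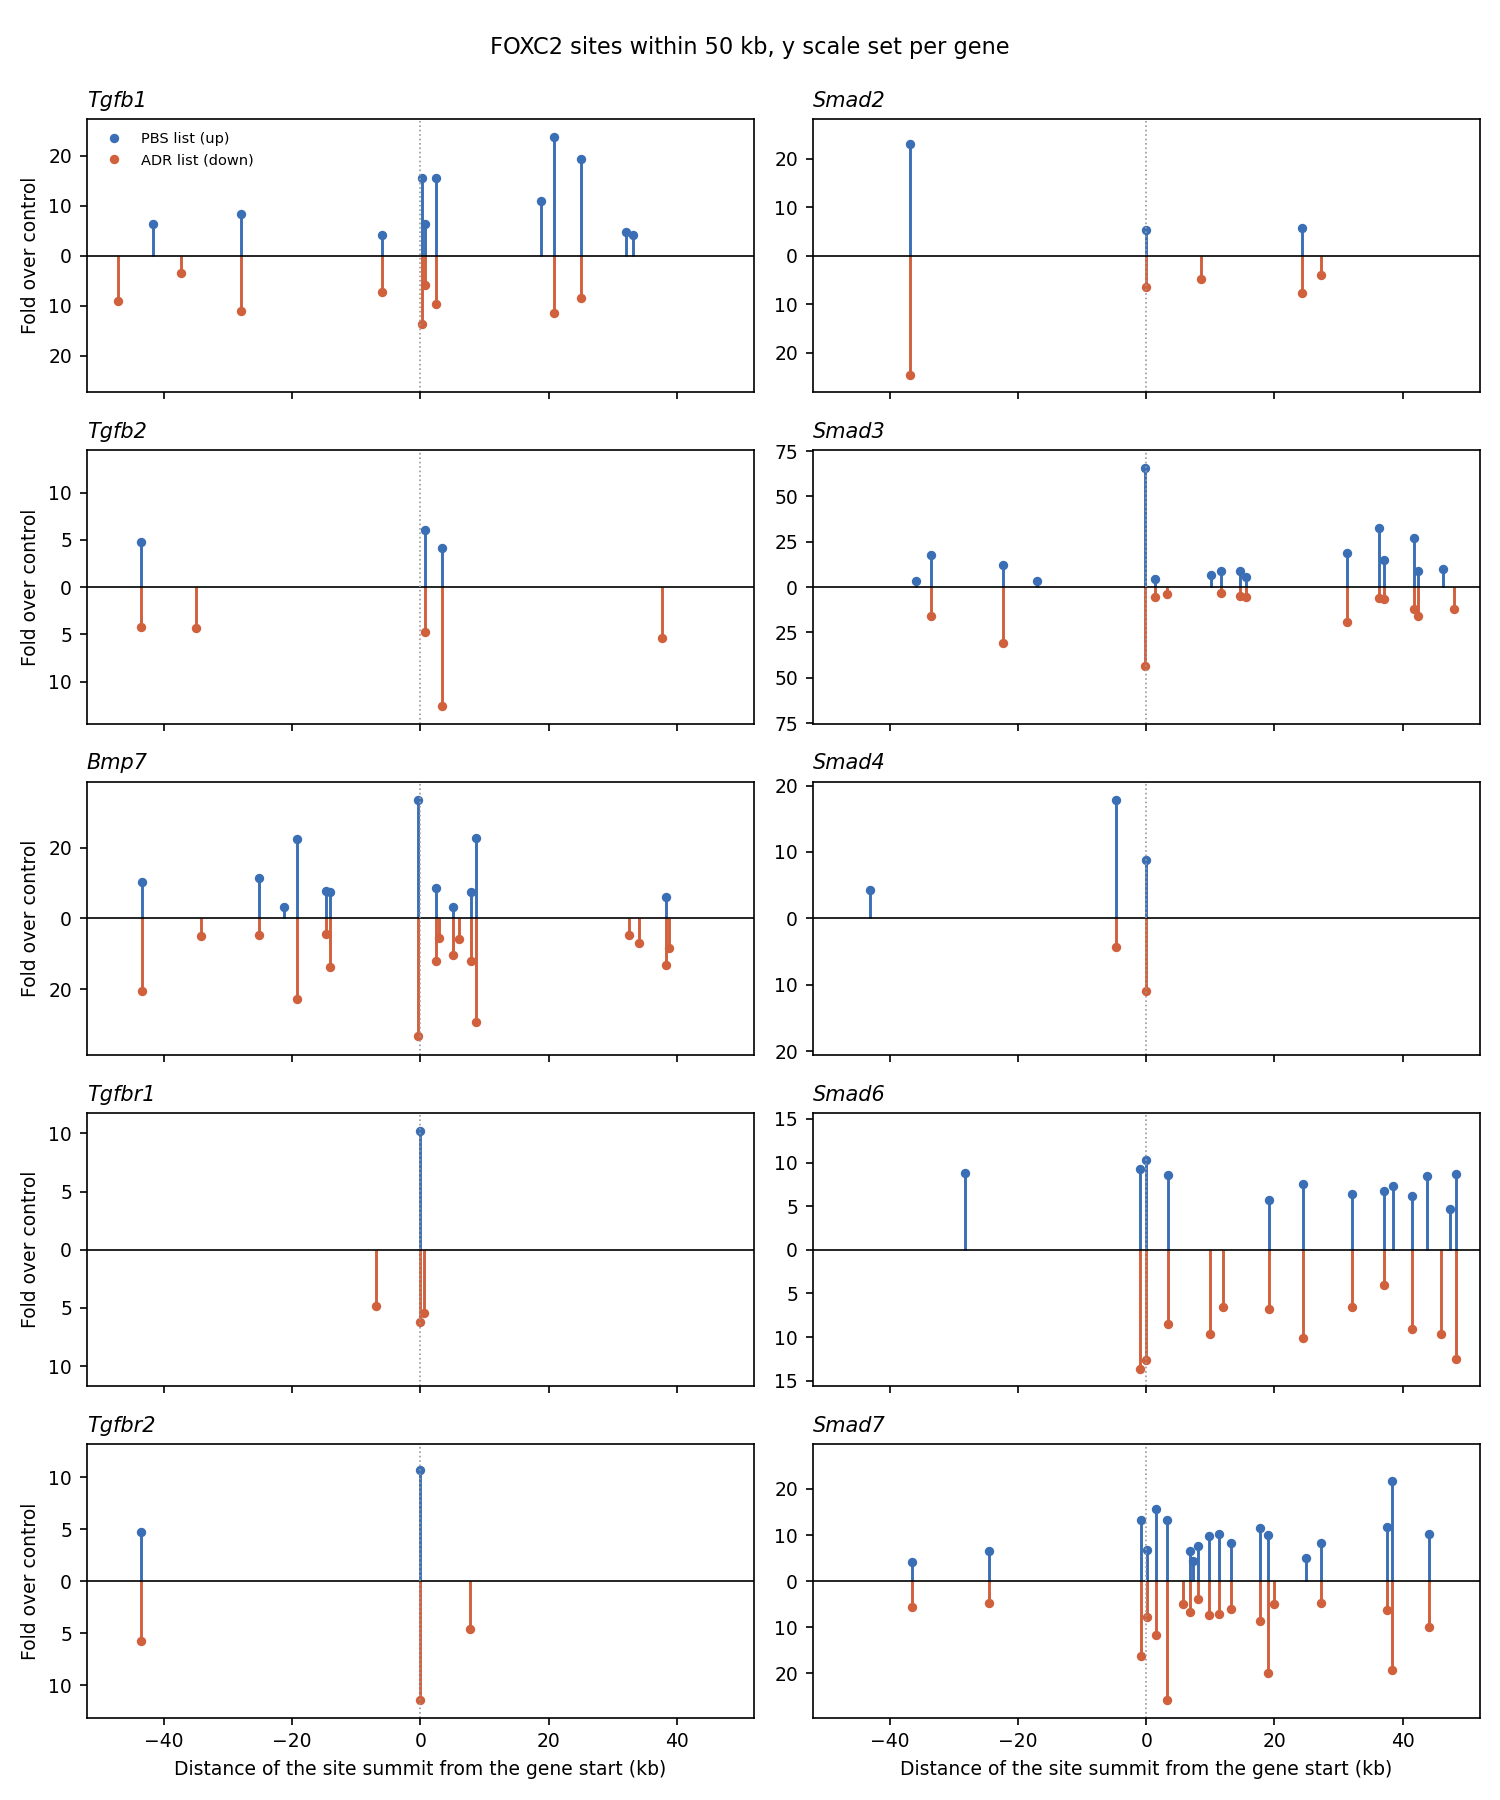
Distance of each site's summit from the gene start (x axis, kb, positive downstream) and its fold over control (y axis, scale set per gene) for PBS, drawn upward, and ADR, drawn downward, at the 10 genes. A site with a stem on 1 side only was called in 1 list. The tallest stems are those of the *Smad3* start, 65.5 in PBS and 43.4 in ADR.

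The receptor-regulated SMAD genes differed from each other. *Smad2* (ENSMUSG00000024563.16, chr18:76241580-76310963, plus strand) had a weak site over its start, 5.23 in PBS and 6.37 in ADR. Its strongest site lay 36.9 kb upstream, between genes, with 23.0 and 24.5. An intron site at 24.2 kb had 5.75 and 7.69, and the 2 ADR-only intron sites had 4.84 and 3.92. All 3 shared *Smad2* sites lay between the ratio limits, from 1.06 to 1.34.

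*Smad3* (ENSMUSG00000032402.12, chr9:63646767-63757994, minus strand) carried the strongest site of the 10 genes. This site, chr9:63757751-63758846 over the start, had a fold of 65.5 in PBS and 43.4 in ADR, a ratio of 0.662. It ranked number 32 of the PBS list and number 164 of the ADR list by fold. No ADR peak of the series was above 49.1. Upstream, the site at 22.4 kb (chr9:63780097-63780800) had 11.9 in PBS and 30.7 in ADR, a ratio of 2.57. The site at 33.5 kb had 17.9 and 15.8.

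Inside *Smad3*, several sites were far lower in ADR. The intron site at 36.2 kb (chr9:63721466-63722091) had 32.3 in PBS and 6.24 in ADR. Its ratio of 0.193 was the smallest of the 67 shared sites, and 0.172% of all shared sites in the series were at or below it. The site at 37.0 kb had 15.1 and 6.52, the site at 41.7 kb 26.8 and 11.8, the site at 14.7 kb, at an internal *Smad3* promoter, 9.11 and 4.99, and the site at 11.7 kb 8.85 and 3.14. Neighboring intron sites did not share this direction. The site at 31.2 kb had 18.7 and 19.5, and the site at 42.4 kb, less than 1 kb from that at 41.7 kb, had 9.05 in PBS and 15.9 in ADR. *Smad3* thus had 2 shared sites at or above 1.5, 6 at or below 1/1.5 and 4 between. Near the far edge of the window, a PBS-only site at 46.3 kb had 9.93 and an ADR-only site at 48.0 kb had 11.9.

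*Smad4* (ENSMUSG00000024515.13, chr18:73639009-73703780, minus strand), the common SMAD, had 8.83 in PBS and 10.9 in ADR over its start. The site 4.71 kb upstream (chr18:73708168-73708707) had 17.9 and 4.31. This ratio of 0.241 was the second smallest at the 10 genes. A PBS-only site 43.0 kb upstream had 4.23, and no site was called only in ADR.

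**Figure D4:**
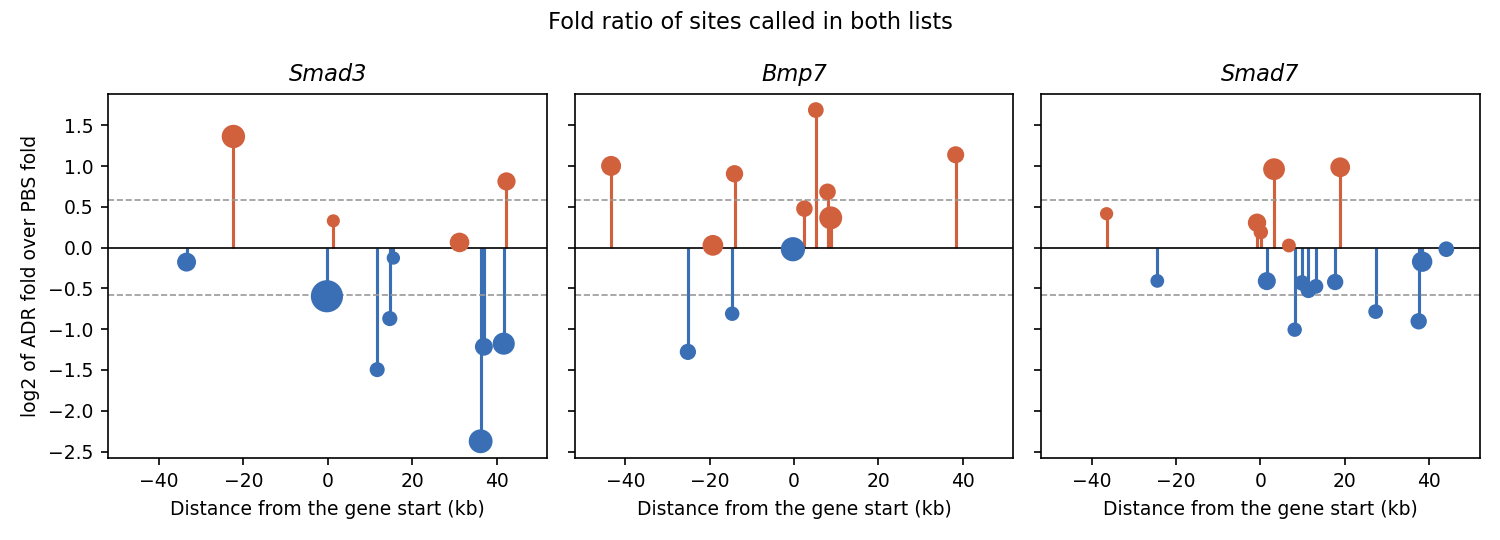
log2 of the ADR fold over the PBS fold (y axis) of the shared sites of *Smad3*, *Bmp7* and *Smad7* by distance from the gene start (x axis, kb, positive downstream). Marker area grows with the higher of both folds and dashed lines mark ratios of 1.5 either way. *Smad3* has 6 sites at or below the lower line and 2 at or above the upper one, *Bmp7* 2 and 5, and *Smad7* 3 and 2.

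The inhibitory SMAD genes had many sites that were called in both lists. *Smad6* (ENSMUSG00000036867.7, chr9:63953076-64022059, minus strand) had 9 shared sites, 4 PBS-only and 3 ADR-only sites, and no fold above 13.6. Over its start the folds were 10.3 in PBS and 12.7 in ADR, and 0.887 kb upstream they were 9.22 and 13.6. The intron site at 37.1 kb, with 6.78 and 4.07, was at or below 1/1.5, and the other 8 shared sites had ratios from 0.997 to 1.49. *Smad3* and *Smad6* are neighbors on chromosome 9, with starts 264 kb apart, so that their windows did not meet.

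*Smad7* (ENSMUSG00000025880.11, chr18:75367529-75395935, plus strand) had 17 shared sites, 2 PBS-only and 2 ADR-only sites. Over its start the folds were 6.78 in PBS and 7.74 in ADR, and 0.793 kb upstream they were 13.2 and 16.4. The strongest ADR site, in the gene at 3.24 kb, had 13.2 and 25.8, and the intron site at 18.9 kb had 10.1 and 19.9, ratios of 1.95 and 1.98. The strongest PBS site, beyond the end of the gene at 38.3 kb, had 21.8 and 19.4. The 3 sites at or below 1/1.5, at 8.13, 27.3 and 37.5 kb, had ratios of 0.498, 0.581 and 0.535. The other 12 lay between, with ratios from 0.696 to 1.33.

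Most sites lay in introns, 57 of 105 (54.3%, Wilson interval 44.8 to 63.5) against 42.6% of all sites. Promoters, taken as 1 kb upstream to 100 bp downstream of any transcript start, held 23 (21.9%, 15.1 to 30.7) against 26.2%. Intergenic sites numbered 19 (18.1%, 11.9 to 26.5) against 21.9%, and 5 lay at transcription ends and 1 in an exon. Of the 22 ADR-only sites 18 were intronic, and of the 16 PBS-only sites 9 were. The intronic share was not taken over all ADR-only or all PBS-only sites of the series. These counts therefore have no background of their own and show no trait of these genes. The 9 start sites had a median GC content of 74.6% and a median ratio of observed to expected CpG of 0.876, against 55.0% and 0.276 at the other sites.

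Motif strings were searched on both strands within 100 bp of the summit. The WT1 strings GNGTGGGAG, GNGTGGGCG, GNGGGGGAG and GNGGGGGCG matched 34 sites (32.4%), against 26.7% of all sites and 6.19% of windows 1 kb to either side of the same summits. The KLF strings GGGTGTGG, GGGCGTGG, GGGTGGGG and GGGCGGGG, which can overlap them, matched 22 (21%), against 17.2% and 11.4%. At the starts, WT1 strings were at 6 of the 9 sites, those of *Tgfb1*, *Bmp7*, *Tgfbr1*, *Tgfbr2*, *Smad3* and *Smad4*, against 32.0% of shared sites over coding starts. The printed window of the *Smad3* start holds 2 of them and a KLF string.

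The forkhead strings GTAAACA and ATAAACA, the letters that the FOX proteins are known to bind, matched 12 sites (11.4%), against 8.72% of all sites and 8.10% of the flanking windows. None of the 9 start sites had one, against 2.35% of all shared start sites. Of the 12, 6 were shared, 2 were PBS-only and 4 of the 22 ADR-only sites. Over the series the strings were at 7.09% of shared, 6.40% of PBS-only and 14.5% of ADR-only sites. *Bmp7* had 3, at 6.01, 32.6 and 34.0 kb in its introns, and each was at an ADR-only site. *Smad3* had 3, at PBS-only sites at 10.1 and 46.3 kb and at the ADR-only site at 48.0 kb. *Smad6* and *Smad7* had 2 each, all at shared sites. The remaining ones were at the *Tgfb1* site at 25.1 kb and the printed *Tgfb2* intron site. The printed *Smad3* windows at 22.4 kb upstream and 36.2 kb downstream, which had the largest and smallest ratio of the strong sites, held none of the strings searched.

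The AP-1 strings TGAGTCA and TGACTCA matched 11 sites, (10.5%), against 7.57% of all sites and 4.76% of the flanking windows. Of the 11, 7 were shared, 3 were PBS-only and 1 was ADR-only, and over the series the strings were at 5.28% of shared, 17.2% of PBS-only and 2.20% of ADR-only sites. At 5 of these 7 shared sites the ADR fold was at most 1/1.5 of the PBS fold, where the background over all shared sites with an AP-1 string was 37.0%. They were the sites of *Smad4* at 4.71 kb upstream, *Smad3* at 11.7 kb, *Bmp7* at 25.2 kb upstream, *Tgfb1* at 25.1 kb and *Smad7* at 8.13 kb. The *Tgfb2* intron site was the single one at or above 1.5, where the background was 15.2%. It also carries a forkhead string and CAGACA. The LMX1B strings TTAATTA and TAATTAA were at 3 sites (2.86%), against 2.95% of all sites and 4.29% of the flanking windows. Both shared ones were *Bmp7* intron sites at 5.15 and 7.92 kb and had ADR folds at least 1.5 times the PBS folds, as had 58.4% of all shared sites with such a string. The TEAD strings ACATTCC and GCATTCC were at 10 sites (9.52%), against 11.0% of all sites and 4.76% of the flanking windows.

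Of the short elements that SMAD proteins bind, CAGACA and the GC box were found at shares near those of all FOXC2 sites. CAGACA was at 19 sites (18.1%), and at 18.1% of the flanking windows and 16.7% of all sites. The GC box GGCGCC was at 8 sites (7.62%), against 6.10% of all sites and 1.90% of the flanking windows. The palindrome GTCTAGAC was at 1 site, that over the start of *Smad6*, and at 0.167% of all sites. The match begins 4 bases before the *Smad6* start and runs across it, and the FOXC2 summit lies 28 bases away. The 30 bases around it, on the strand of the gene, are shown because they hold the single palindrome, in capitals.
Smad6 start, minus strand, chr9:64022045-64022074: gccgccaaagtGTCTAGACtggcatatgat

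In RefSeq promoters of GRCm38, which are short windows across each start, 6 of the 10 genes had an entry. The palindrome was in 0.213% of 32851 promoters, and of these 6 genes *Smad6* alone had it. WT1 strings were in 18.1% of promoters and in those of *Smad3*, *Tgfb1*, *Tgfbr1* and *Tgfbr2*. None of the 6 genes had a forkhead string there, and 7.97% of promoters did. The absence of letters from a window says nothing on whether a factor binds.

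Around the 10 genes, 86 other genes of the pathways were grouped by role, and 79 had a peak within 50 kb. Of these 79, 21 had more ADR peaks (26.6%), 45 had fewer (57.0%) and 13 had the same number, beside 27.2%, 44.1% and 28.8% of coding genes with a peak. Among 13 receptors and co-receptors 7 had more and 2 fewer ADR peaks. The windows of these 2 overlap, with the same strongest folds of 47.6 in PBS and 33.4 in ADR. Among 16 intracellular inhibitors and modulators 7 had more and 4 fewer. Among 13 transcriptional targets 1 had more and 11 fewer, and among 8 other TGF-beta, activin and GDF ligands 2 had more and 6 fewer. The 9 other BMP ligands had 1 and 5, the 10 genes of the latent complex 2 and 7, the 14 extracellular antagonists 1 and 7, and the other 3 receptor-regulated SMADs 0 and 3. No peak lay at 2 of these BMP ligands, 4 of the antagonists and 1 of the intracellular modulators. The shares over coding genes leave out such genes. Added up, the 9 other BMP ligands had 23 PBS and 12 ADR peaks. Few genes weigh on this sum, as *Gdf7* alone had 6 and 1. As at *Bmp7*, 1 of the 9 had more ADR peaks, and another 1 had the same nonzero number in both lists.

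**Figure D5:**
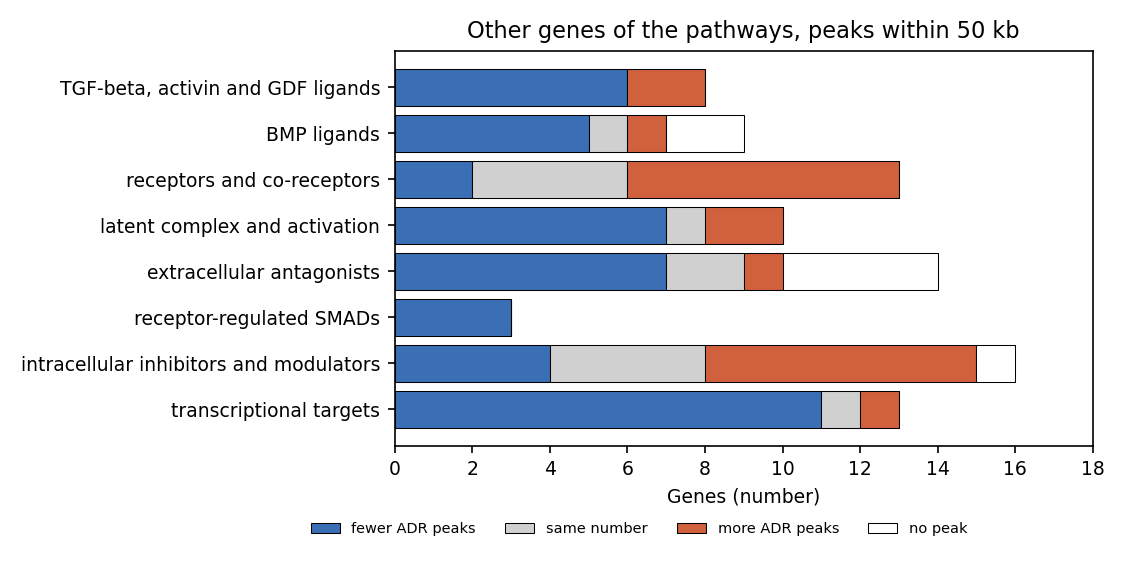
Number of genes (x axis) in each role list of the TGF-beta and BMP pathways, without the 10 genes, that had fewer, the same number of or more FOXC2 peaks after ADR than with PBS, or no peak, within 50 kb. Receptors have 7 genes with more and 2 with fewer ADR peaks, and transcriptional targets have 1 and 11.

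The 4 largest differences toward ADR were those of *Pmepa1*, a feedback inhibitor that holds receptor-regulated SMADs back, with 13 PBS and 19 ADR peaks, *Acvr2b*, an activin type II receptor, with 6 and 11, *Skil*, a SMAD corepressor, with 7 and 10, and *Nedd4l*, a ubiquitin ligase for SMAD2 and SMAD3, with 4 and 7. The 4 largest toward PBS were those of *Gdf11*, an activin-type ligand, with 11 and 2, *Acvr1b*, an activin type I receptor, with 14 and 9, *Id3*, a target of BMP signaling, with 10 and 5, and *Gdf7*, a BMP ligand, with 6 and 1. The strongest site of these windows lay 0.540 kb upstream of *Bhlhe40*, a transcriptional repressor, with 74.9 in PBS and 23.6 in ADR. That of *Acvr1b*, over its own promoter, had 47.6 and 33.4. The strong sites in the windows of *Ski*, with 69.8 and 38.5, and *Gdf15*, with 68.7 and 42.4, were nearest to the starts of *Faap20* and *Ssbp4*. Likewise, the strongest sites in the windows of *Gdf11*, *Gdf7*, *Acvr2b* and *Pmepa1* were nearest to the starts of *Cd63*, *Hs1bp3*, *Exog* and *Zbp1*. Those of *Skil*, *Nedd4l*, *Acvr1b* and *Id3* were nearest to their own starts. Peak counts of a window can thus include peaks of a neighbor.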

How the data were processed

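FOXC2 ChIP-seq was performed by the authors in 6 samples of sorted podocytes, 3 per condition. After trimming and alignment to GRCm38, they called narrow peaks through nf-core/chipseq and combined the replicates of each condition. The caller's version and threshold and the read depth are not given in the sources used here. The deposited lists hold, for each peak, a position, a whole-number score, a fold (a ratio to the local control) computed by the authors, and −log10 p and q-value at the summit. The score and p were not used. In both pooled lists the peak names bear 1 sample's label, so the pooling is taken from the list labels and the authors' methods. For each condition the paper reports somewhat fewer FOXC2 peaks than the list used here holds.

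The members and lists were chosen with earlier results of these data known. Genes and starts came from GENCODE M21, sequence from the GRCm38 reference and promoters from RefSeq. Distances are those of the summit with the higher fold. A site's fold is that of its highest peak in a list. Motif matches were exact. Transcription ends were 100 bp upstream to 1 kb downstream, and assignment followed the order promoter, transcription end, exon, intron, intergenic. All 10 genes are named, as are the 4 other pathway genes with the largest and the 4 with the smallest difference in number of peaks and the 4 with the strongest peak. Lists were counted, not tested, and shares over all genes or sites stand beside the counts. Counting, merging and motif steps were checked on simulated data. Alternatives were windows of 5, 10 and 100 kb, any transcript start, summits for peaks, nearest starts, stricter peak limits, other overlaps, centered or ranked folds, a ratio of 2, mean folds, a narrower motif window, the summit of the PBS peak, wider promoters and peak midpoints. Python 3.11.15, NumPy 2.4.6, pandas 2.3.3, SciPy 1.17.1 and matplotlib 3.10.9 were used. The study's WT1 ChIP-seq and RNA-seq were not used here. Results at 1 of the podocyte marker genes are not reported here.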

Additional observations from a re-analysis of the deposited data

How the results depend on the processing

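No paired analysis was possible because each condition is a single pooled list and no value comes from a test, and for the same reason no sample could be left out. Over the alternatives the difference in number of peaks, ADR minus PBS, ran from 1 to 5 at *Bmp7*, from 0 to 7 at *Smad2*, from 0 to 6 at *Tgfbr2*, from −4 to 1 at *Smad3* and from −8 to 0 at *Smad7*. Within 10 kb there were 31 PBS and 37 ADR peaks, 1 gene with fewer ADR peaks, 2 PBS-only, 9 ADR-only and 28 shared sites, 5 shared sites higher and 5 lower in ADR, and 9 other pathway genes with more ADR peaks, and the difference at *Smad6* became 1. Within 5 kb these were 23 and 25 peaks, 3 genes with more and 1 with fewer ADR peaks, 0, 3 and 22 sites, 3 higher and 4 lower, and 7 pathway genes, and the difference at *Smad3* became 1. Within 100 kb there were 159 and 167 peaks, 35 PBS-only, 44 ADR-only and 123 shared sites, 31 higher and 30 lower, and the difference became −1 at *Tgfbr1*, 6 at *Tgfbr2*, 7 at *Smad2* and −5 at *Smad6*.

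The 1 gene with fewer ADR peaks within 10 kb and within 5 kb was *Smad7*, through its site that held 2 PBS peaks and 1 ADR peak. Genes with fewer ADR peaks numbered 3, not 5, with only peaks nearest to the gene's own start and likewise at a −log10 q limit of 5. With the 20000 peaks of smallest q in each list there were 54 PBS and 45 ADR peaks, 3 genes with more and 3 with fewer, 11 ADR-only and 34 shared sites, and 7 shared sites higher and 6 lower, and the difference became −8 at *Smad7* and −4 at *Smad3*. A fold of at least 5 left 9 sites lower in ADR. An overlap of 50% of both peaks gave 26 PBS-only sites and 11 lower ones, rank percentiles gave 26 lower ones, and a ratio of 2 gave 5 higher and 9 lower. Motifs within 50 bp were at 10 sites for CAGACA, 2 for the GC box, 7 for AP-1, 4 for TEAD, 1 for LMX1B and 13 for KLF. The causes were not tested. The unknown depth limits what the absence of a peak can show.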
